A study of Mus musculus with 10 samples.

Results

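The semaphorins, the plexins and the neuropilins were followed in RNA-seq of the whole mouse uterus. The members were chosen by name, as the protein-coding genes of the deposited table whose symbol is that of a class 3 to 7 semaphorin, of a plexin of type A, B, C or D, or of *Nrp1* or *Nrp2*. There were 31 such genes among the 29268 genes listed, namely 20 semaphorins, 9 plexins and 2 neuropilins. The samples were uteri of 5 HSD17B1TG and 5 WT females of the FVB/N strain, all aged 4 months and untreated as far as the labels say, with 1 library per mouse. The HSD17B1TG mice are heterozygous for a human HSD17B1 cDNA driven by a CMV-enhanced chicken beta actin promoter, which is active in nearly all tissues and not in the uterus alone. HSD17B1 is the enzyme that turns the weak estrogen estrone into estradiol. According to the study's methods HSD17B1TG females do not cycle, whereas WT uteri were taken at random phases of the estrous cycle, so the transgene and the absence of a cycle cannot be told apart here. Mice are named TG1 to TG5 or WT1 to WT5 by sample order, and equal numbers pair no mice.

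Semaphorins are secreted or membrane-bound guidance proteins that make cells and axons retract, migrate or adhere. Plexins are their receptors. Plexins switch off small GTPases of the Ras family and act on the actin cytoskeleton through proteins such as collapsin response mediators and MICALs. Most of the secreted class 3 semaphorins bind a neuropilin, which presents them to a plexin and also binds VEGF, so that guidance of nerves and growth of blood vessels share receptors. The transmembrane classes bind plexins directly, and class 7 is tied to the membrane by a lipid anchor. In the uterus, vessels, nerves and epithelium are all remodelled under steroid hormones.

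Levels are given as FPKM, that is, fragments per length of gene and per size of library, which allows genes of different length to be compared. Differences are log2 fold changes of HSD17B1TG over WT from raw counts with edgeR's quasi-likelihood test, with the standard error (SE) and a p adjusted by Benjamini-Hochberg over all 16993 genes that passed the filter on low counts. A gene is called where this adjusted p is under 0.05. Of the 31 members 30 passed the filter. The exception was *Plxnb3*, whose highest value in any mouse was 0.140 FPKM. Whole uterus mixes epithelium, stroma, muscle and vessels, so that fewer cells of a type and less RNA per cell cannot be told apart in these values. The libraries held 16544864 to 19451715 counts in HSD17B1TG and 14817228 to 23271988 in WT. Mitochondrial genes took 5.74, 6.87 and 7.57% of the counts in TG1, TG4 and TG5, against 1.94 and 2.49% in TG2 and TG3 and 2.58 to 3.37% in WT. Without these 3 mice, an alternative chosen after seeing this share that leaves 2 HSD17B1TG mice, edgeR called no member (15 at an unadjusted p under 0.05) and 5 of all genes, and the log2 fold changes of *Sema3b*, *Sema3c*, *Sema6d* and *Sema7a* were 0.88, -0.82, 0.70 and -1.45.

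Of the 30 members tested, 2 were called higher in HSD17B1TG, *Sema3b* and *Sema6d*, and 2 were called lower, *Sema3c* and *Sema7a*. Over all genes tested, 3.34% were called higher and 2.81% lower, and 2 of 30 is 6.67% in each direction. The FPKM of the 2 groups did not overlap for *Sema3f* and *Sema6d*, which were higher in each HSD17B1TG mouse, and for *Sema3c* and *Sema5b*, which were lower in each. Such a gap was found in 4.04% of all genes tested in the higher and in 2.65% in the lower direction. Before adjustment, 17 of the 30 members (56.7%) had a p under 0.05, against 26.1% of all genes. The members were split evenly by direction, 15 with a positive and 15 with a negative log2 fold change. Their median was 0.02 on the log2 scale, beside 0.00 for all genes tested. The median size of the difference, sign ignored, was 0.83 in the members and 0.35 in all genes. DESeq2 called 5 members higher (7.31% of all genes it tested) and 5 lower (5.64%). These were *Sema3b*, *Sema3d*, *Sema3f*, *Sema4b* and *Sema6d* in the first direction, and *Sema3c*, *Sema5b*, *Sema6a*, *Sema7a* and *Plxnc1* in the second. Voom with quality weights, another alternative, called 8 members higher and 6 lower, and 3283 of all 16993 genes tested, 1965 of them higher.

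**Figure D1:**
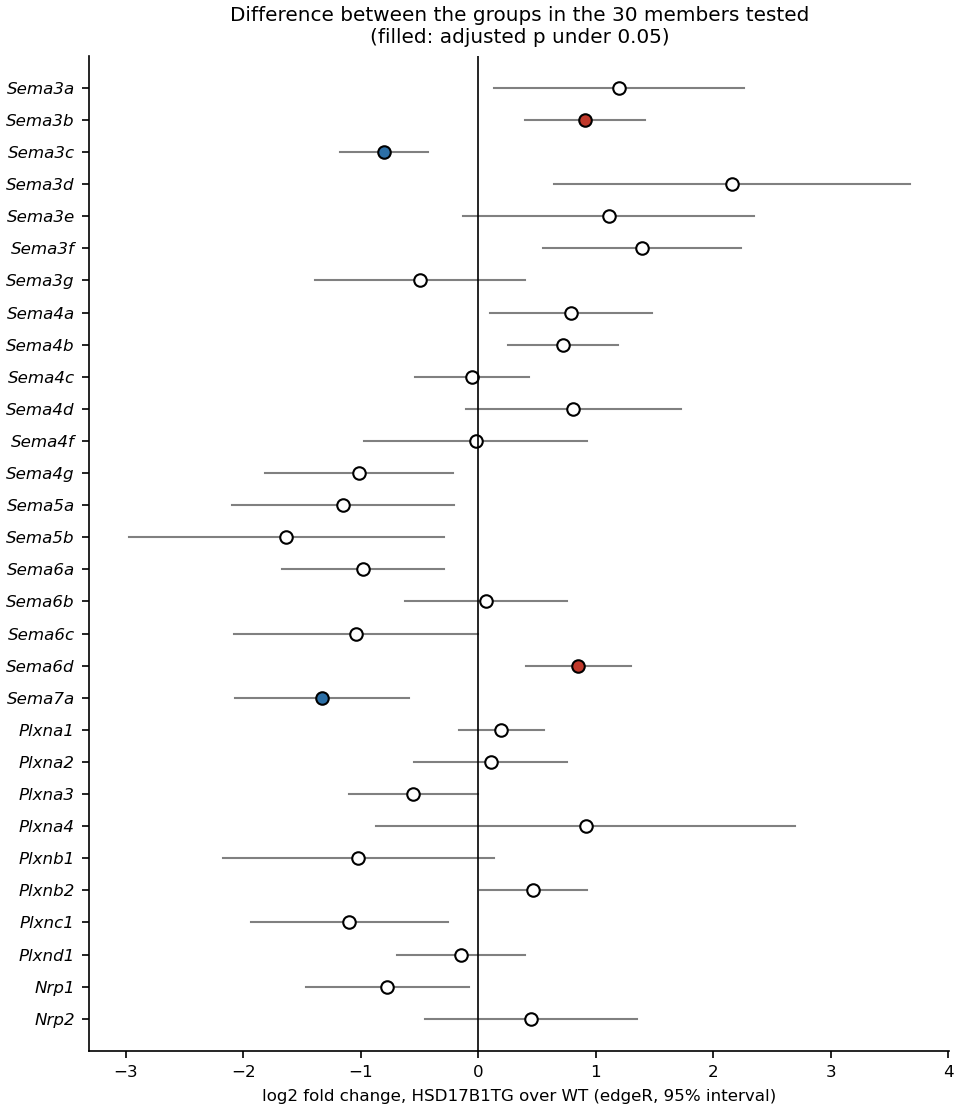
Log2 fold change of HSD17B1TG over WT with its 95% interval for the 30 members tested, ordered by class. The 4 filled points are the called genes, with *Sema3b* and *Sema6d* to the right of 0 and *Sema3c* and *Sema7a* to the left, while open points did not pass an adjusted p of 0.05.

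The secreted class 3 semaphorins held the most abundant ligand of each group, and it was not the same gene. *Sema3c*, which binds both neuropilins and is known from heart outflow tract formation, lies on the plus strand of chromosome 5 from 17574281 to 17730268 (GRCm38). In HSD17B1TG its FPKM was 12.9 in TG1, 15.6 in TG2, 13.5 in TG3, 17.5 in TG4 and 14.7 in TG5. In WT it was 24.1 in WT1, 26.2 in WT2, 23.9 in WT3, 19.3 in WT4 and 35.4 in WT5. The groups were fully apart, HSD17B1TG below WT, with means of 14.8 ± 1.83 and 25.8 ± 5.93 FPKM (SD, n = 5 each). *Sema3c* fell by 0.80 on the log2 scale (SE 0.17), with an edgeR adjusted p of 0.0305. The call was also made in each of the 7 other normalizations, filters and tools tried. It was kept in only 3 of the 10 fits that left out 1 mouse, those without TG1, TG3 or WT4, and the adjusted p reached at most 0.0710 in the other fits. The log2 fold change in those 10 fits stayed between -0.89 and -0.68.

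*Sema3f*, a secreted ligand that prefers *Nrp2*, lies on the minus strand of chromosome 9 from 107681500 to 107710475. Its FPKM was 25.8 in TG1, 37.7 in TG2, 33.9 in TG3, 28.0 in TG4 and 34.5 in TG5. The WT mice had 21.0 in WT1, 8.12 in WT2, 4.82 in WT3, 19.8 in WT4 and 7.06 in WT5. The HSD17B1TG mice all lay above the WT mice, and WT1 and WT4 stood well above the other WT mice. The means were 32.0 ± 4.92 and 12.2 ± 7.62 FPKM. The log2 fold change was 1.40 (SE 0.38), and the edgeR adjusted p of 0.0540 missed the threshold. It was called by DESeq2 (adjusted p = 0.00853), by voom with quality weights and by limma on log2 FPKM, but not with the other normalizations or without the filter, the adjusted p ranging from 0.00805 to 0.0725 over these 7 alternatives. In edgeR it passed when TG1 or when WT4 was left out, with a lowest adjusted p of 0.0235.

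*Sema3f* and *Sema3c* differed in opposite directions, and their order by FPKM was exchanged. The ratio of *Sema3f* to *Sema3c* in FPKM was 2.0 in TG1, 2.41 in TG2, 2.51 in TG3, 1.60 in TG4 and 2.35 in TG5. The WT ratios were 0.873, 0.310, 0.202, 1.02 and 0.199 in WT1 to WT5. *Sema3f* was thus the higher of the pair in every HSD17B1TG mouse and, of the WT mice, only marginally in WT4. Among the 20 ligands, *Sema3c* came first in WT and *Sema3f* first in HSD17B1TG, each ahead of the next by more than their pooled SD. In WT the second to the sixth place were *Sema4c*, *Sema3f*, *Sema4a*, *Sema7a* and *Sema5a*, whose neighbouring means did not differ beyond their spread. In HSD17B1TG the same held for *Sema4a*, *Sema3c*, *Sema4c*, *Sema4b* and *Sema3b*. The summed FPKM of the 7 class 3 genes was 69.1 to 81.6 in HSD17B1TG and 43.8 to 64.1 in WT.

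**Figure D2:**
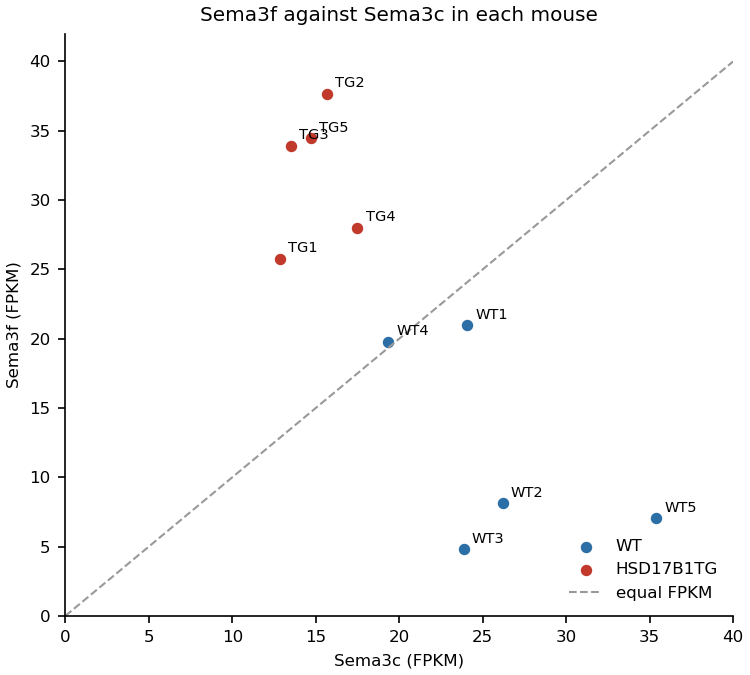
FPKM of *Sema3f* (vertical) against *Sema3c* (horizontal), 1 point per mouse, with a dashed line where both are equal. The 5 HSD17B1TG points lie above the line at ratios of 1.60 to 2.51, and the WT points lie at ratios of 0.199 to 1.02.

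**Figure D3:**
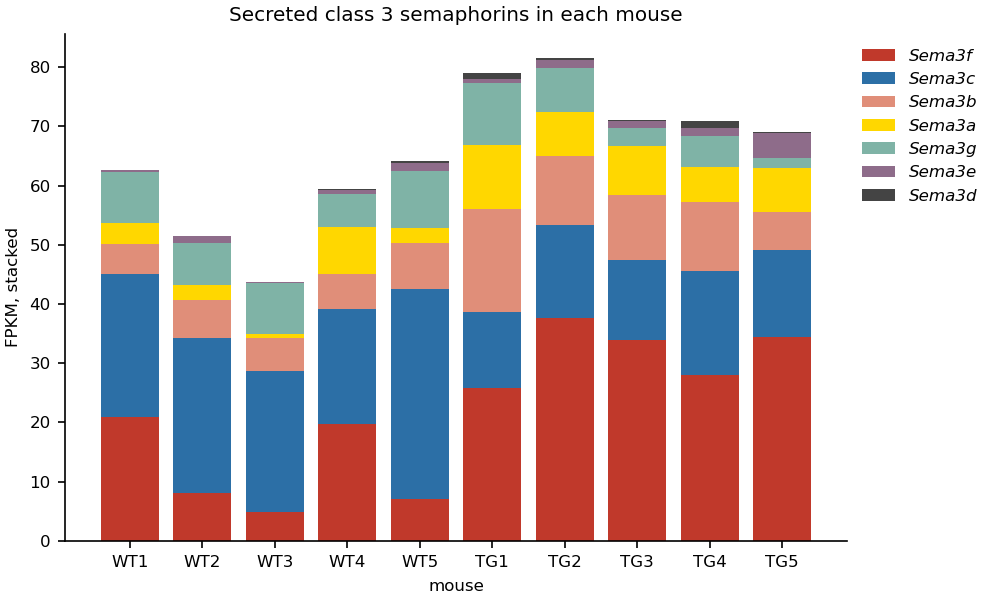
FPKM of the 7 secreted class 3 semaphorins stacked for each mouse, starting at 0. The segment of *Sema3c* is the largest in 4 of the 5 WT mice and that of *Sema3f* in all 5 HSD17B1TG mice.

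*Sema3b*, the close relative of *Sema3f*, lies near it on the same strand, from 107597674 to 107609229. Between the ends of both genes are 72270 bases. Its FPKM was 17.4 in TG1, 11.7 in TG2, 10.98 in TG3, 11.8 in TG4 and 6.38 in TG5. The WT values were 5.06 in WT1, 6.37 in WT2, 5.66 in WT3, 5.96 in WT4 and 7.77 in WT5. TG1 was the highest mouse and TG5 fell within the WT range, while the other HSD17B1TG mice lay above it. *Sema3b* rose by 0.91 on the log2 scale (SE 0.23, edgeR adjusted p = 0.0457). This call is close to the threshold and was lost with upper quartile scaling, without the filter and with limma on log2 FPKM (adjusted p 0.0545 to 0.0659). It was kept in 3 of the 10 fits without 1 mouse, those without TG1, TG5 or WT4, and lost in the other fits with an adjusted p of up to 0.108. Of the genes between *Sema3b* and *Sema3f*, the G protein subunit gene *Gnai2* had a log2 fold change of 0.32 (adjusted p = 0.230), and *Slc38a3* and *Gnat1* were too low to be tested.

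None of the other class 3 genes was called by edgeR with all mice, while *Sema3d* was called by DESeq2 (adjusted p = 0.0118) and voom (0.0384), and *Sema3a* by voom (0.0211) and by edgeR without WT4 (0.0208). The gene *Sema3a*, whose product collapses growth cones through *Nrp1*, was at 5.93 to 10.8 FPKM in HSD17B1TG and at 0.675 to 7.89 in WT, with a log2 fold change of 1.20 (SE 0.48, adjusted p = 0.146). It was highest in WT4 within WT and in TG1 within HSD17B1TG. *Sema3d* was low throughout, at 0.229 to 1.22 FPKM in HSD17B1TG and 0.0433 to 0.290 in WT, and had the largest positive value of the members, 2.16 (SE 0.69, adjusted p = 0.0787). *Sema3e*, which binds *Plxnd1* without a neuropilin, was at 0.728 to 4.16 and 0.260 to 1.47 FPKM (log2 fold change 1.11, adjusted p = 0.239). *Sema3g*, an endothelial ligand, was at 1.77 to 10.5 and 5.57 to 9.53 FPKM (-0.50, adjusted p = 0.472). Of the 7 genes of the class 5 had a positive value, with a median of 1.11. *Sema3a*, *Sema3c*, *Sema3d* and *Sema3e* lie within 5.35 Mb of chromosome 5, and of these *Sema3c* alone had a negative value.

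Among the class 4 genes, transmembrane ligands that act on immune cells and epithelia, none was called by edgeR, with 3 of 6 at an unadjusted p under 0.05, 1 called by DESeq2 and 3 by voom with quality weights. *Sema4c*, a ligand of *Plxnb2*, and *Sema4a* were the most abundant of them, *Sema4c* coming first in WT (14.3 against 10.1 FPKM) and *Sema4a* in HSD17B1TG (17.6 against 13.9). The FPKM of *Sema4c* was 19.6, 16.2, 12.6, 12.4 and 8.63 in TG1 to TG5, and 14.5, 13.5, 12.6, 11.7 and 19.4 in WT1 to WT5. The groups overlapped almost fully. The 95% interval of the log2 fold change of -0.05 ran from -0.54 to 0.43, and differences within it are not decided by these data. *Sema4b* was at 8.32 to 16.2 FPKM in HSD17B1TG and 5.81 to 11.03 in WT, with a log2 fold change of 0.72 (SE 0.21, adjusted p = 0.0652). Without TG1 or WT4 edgeR called *Sema4b* (adjusted p = 0.0296 and 0.0149). *Sema4a*, which is known from T cell priming, was at 11.1 to 25.9 and 4.95 to 13.6 FPKM (0.79, adjusted p = 0.140). *Sema4d*, the ligand of *Plxnb1* and *Cd72*, was at 4.12 to 15.2 and 2.43 to 8.99 FPKM (0.81, adjusted p = 0.244). *Sema4g* differed in the other direction, at 1.09 to 2.87 and 1.91 to 5.03 FPKM (-1.02, adjusted p = 0.108), and edgeR called it without TG1 (0.0389). *Sema4f* did not exceed 0.294 FPKM in any mouse, and its value of -0.02 was not called (adjusted p = 0.982).

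Both class 5 genes, whose products carry thrombospondin repeats, had negative values. *Sema5b* was low, at 0.470, 0.479, 0.533, 0.0701 and 0.0817 FPKM in TG1 to TG5. The WT values were 2.14, 0.788, 0.771, 0.643 and 0.724 FPKM in WT1 to WT5. Every HSD17B1TG mouse lay below every WT mouse, with TG4 and TG5 far below the rest and WT1 far above. The raw counts behind these values were 8 and 9 in TG4 and TG5 and 372 in WT1. The log2 fold change was -1.63 (SE 0.61), which edgeR did not call (adjusted p = 0.122) and DESeq2 did (0.0461), the other alternatives giving 0.0617 to 0.148. *Sema5a* was at 2.30 to 7.85 FPKM in HSD17B1TG and 4.15 to 14.0 in WT (-1.15, SE 0.43, adjusted p = 0.120). Voom called *Sema5a* lower (-1.475, adjusted p = 0.0258), while DESeq2 did not call it (0.0623).

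Of the class 6 genes, transmembrane ligands of the type A plexins, *Sema6d*, on the plus strand of chromosome 2 from 124089969 to 124667770, was called. Its FPKM was 3.19 in TG1, 4.46 in TG2, 2.81 in TG3, 3.98 in TG4 and 5.79 in TG5. WT mice had 2.13 in WT1, 2.75 in WT2, 2.02 in WT3, 2.06 in WT4 and 2.21 in WT5. The groups did not overlap, although WT2 came close to TG3, the lowest of the HSD17B1TG mice. *Sema6d*, whose main receptor is *Plxna1*, rose by 0.85 (SE 0.20, edgeR adjusted p = 0.0390). The call was lost without the filter (adjusted p = 0.0501) and with limma on log2(FPKM + 1) (0.0529), the 7 alternatives giving 0.00380 to 0.0529. It was kept in 3 of the 10 fits without 1 mouse, those without TG1, TG3 or WT4, and lost in the other fits with an adjusted p of up to 0.0933. The 3 other genes of the class were not called by edgeR with all mice, while *Sema6a* was called by DESeq2 (adjusted p = 0.0344), voom (0.0264) and edgeR without WT4 (0.0345). *Sema6a* was at 1.27 to 3.21 FPKM in HSD17B1TG and 2.31 to 5.56 in WT (log2 fold change -0.98, SE 0.31, adjusted p = 0.0803). *Sema6c* was at 1.69 to 5.21 and 1.79 to 11.3 FPKM (-1.04, adjusted p = 0.192). *Sema6b* was at 2.99 to 3.63 and 1.21 to 4.89 FPKM (0.07, adjusted p = 0.917). In FPKM, *Sema6d* exceeded *Sema6a* in each HSD17B1TG mouse, by 1.24 to 4.57 times, whereas the ratio was 0.382 to 0.893 in WT.

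*Sema7a*, the only class 7 member, binds *Plxnc1* and integrins and is known from immune cells and axon growth. It lies on the plus strand of chromosome 9 from 57940112 to 57962865. Its FPKM was 6.02 in TG1, 3.70 in TG2, 3.06 in TG3, 3.48 in TG4 and 2.20 in TG5. WT values were 8.03 in WT1, 6.70 in WT2, 14.5 in WT3, 5.17 in WT4 and 11.8 in WT5. TG1 lay above WT4, the lowest WT mouse, and the other HSD17B1TG mice lay below every WT mouse. *Sema7a* fell by 1.33 on the log2 scale (SE 0.34, edgeR adjusted p = 0.0445), from 9.24 ± 3.83 FPKM in WT to 3.69 ± 1.42 in HSD17B1TG. With a mean FPKM above 1 in either group and a change by a factor above 2 also required, *Sema7a* alone passed with the edgeR p. With the p of DESeq2, the tool used in the study, and the same thresholds, *Sema3f* passed as higher and *Sema5b*, *Sema7a* and *Plxnc1* as lower. *Sema5b* met the FPKM threshold only through WT1, at 2.14 against 0.643 to 0.788 in the other WT mice, with a WT mean of 1.01. The call of *Sema7a* was made in all 7 alternatives, but in only 2 of the 10 fits without 1 mouse, those without TG1 or WT4. Without any of the other mice the adjusted p was up to 0.0990.

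**Figure D4:**
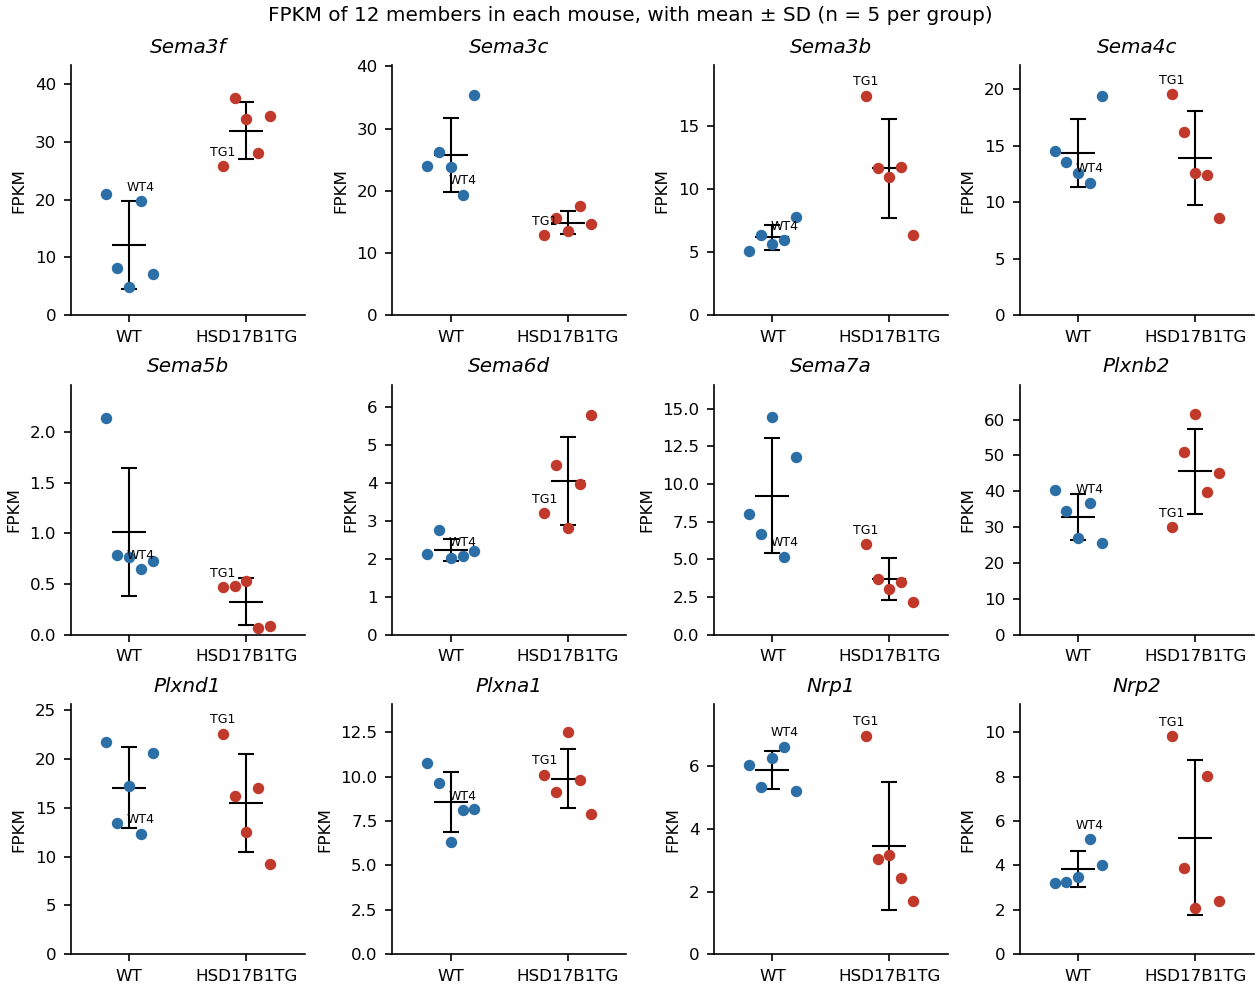
FPKM of 12 members in each mouse, 1 panel per gene with its own vertical axis from 0, WT in blue and HSD17B1TG in red, with mean ± SD of 5 mice in black. The points of *Sema3f*, *Sema3c*, *Sema5b* and *Sema6d* do not overlap between the groups, and TG1 and WT4 are marked by name.

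Start sites were read in RefSeq promoter windows (GRCm38.p6), of which the 250 bases before the start site were used. Of the 31 members 26 had 1 or more windows, 37 in all, out of 32851 windows of all genes. The members with none are *Sema3b*, *Sema3f*, *Sema6a*, *Plxna1* and *Plxna4*. Shown here are the first of 2 windows of *Sema6d*, the called gene that was higher in every HSD17B1TG mouse, at chr2:124089719-124089968, and the window of *Sema7a*, the called gene with the larger decrease, at chr9:57939862-57940111, both 5′ to 3′ on the plus strand and both outside annotated genes. Capitals mark GC boxes (GGGCGG) and half-sites of the estrogen response element (GGTCA), on either strand.
Sema6d: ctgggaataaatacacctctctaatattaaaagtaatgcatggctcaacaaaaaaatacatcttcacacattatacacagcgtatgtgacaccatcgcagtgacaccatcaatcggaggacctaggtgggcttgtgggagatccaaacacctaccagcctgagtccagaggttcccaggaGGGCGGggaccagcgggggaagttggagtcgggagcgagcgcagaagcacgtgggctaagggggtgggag
Sema7a: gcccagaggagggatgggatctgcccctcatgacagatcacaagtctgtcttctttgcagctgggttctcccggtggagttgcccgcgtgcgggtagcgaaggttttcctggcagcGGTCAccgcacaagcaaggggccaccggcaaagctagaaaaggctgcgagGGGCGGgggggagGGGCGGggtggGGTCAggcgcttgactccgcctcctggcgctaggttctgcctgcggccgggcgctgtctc
The printed window of *Sema6d* held 1 GC box and no estrogen half-site, its other window, at chr2:124653331-124653580, held neither, and that of *Sema7a* held 2 GC boxes and 2 half-sites. A GC box stood in 27 of the 37 member windows, against 32.7% of all windows, and the member windows had a median GC content of 64% against 52.4%. The half-site stood in 13 of the 37, against 35.2% of all windows. The full estrogen response element (GGTCANNNTGACC), which holds 2 half-sites, was in none of the member windows and in 0.0639% of all. The half-site of the progesterone response element (AGAACA) was in 7 of the 37 and in 16.1% of all, the AP-1 element (TGANTCA) in 3 and in 6.75%, and the TATA box (TATAAA) in none and in 12.4%. These are matches of letters in a short window and say nothing on binding.

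None of the 8 plexins tested was called by edgeR, with 3 at an unadjusted p under 0.05 (*Plxna3*, *Plxnb2* and *Plxnc1*), 1 called by DESeq2 (*Plxnc1*) and 1 by voom (*Plxnb2*). *Plxnb2*, a receptor of class 4 semaphorins that is common in epithelia, was the most abundant receptor in both groups. Its FPKM was 30.05, 51.0, 61.6, 39.9 and 45.1 in TG1 to TG5 and 40.4, 34.4, 26.9, 36.7 and 25.5 in WT1 to WT5. TG1 lay within the WT range and 3 of the HSD17B1TG mice lay above it, and the log2 fold change was 0.47 (SE 0.21, adjusted p = 0.179). *Plxnd1*, the endothelial receptor of *Sema3e*, came next in both groups. Its FPKM was 22.6, 16.2, 12.5, 17.0 and 9.21 in TG1 to TG5 and 21.8, 13.4, 17.2, 12.3 and 20.6 in WT1 to WT5. TG1 lay above and TG5 below every WT mouse, with the others within the WT range (-0.14, 95% interval -0.69 to 0.40). *Plxna1*, the receptor of *Sema6d* and a partner of neuropilins, followed, at 10.1, 9.14, 12.5, 9.83 and 7.90 FPKM in TG1 to TG5 and at 10.8, 9.62, 6.31, 8.12 and 8.16 in WT1 to WT5. These groups overlapped too (0.20, 95% interval -0.16 to 0.56).

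The remaining plexins lay lower. *Plxnb1*, the receptor of *Sema4d*, was at 1.41 to 5.53 FPKM in HSD17B1TG and 1.60 to 13.2 in WT (log2 fold change -1.02, SE 0.52, adjusted p = 0.244). *Plxna3* was at 3.13 to 4.80 and 3.05 to 8.49 FPKM (-0.55, adjusted p = 0.189), and edgeR called it without WT4 (-0.72, adjusted p = 0.0294). *Plxnc1*, the receptor of *Sema7a*, was at 0.439 to 0.990 and 0.608 to 2.19 FPKM (-1.10, SE 0.38, adjusted p = 0.101), which DESeq2 called (adjusted p = 0.0435) and edgeR did not. *Plxna2* was at 0.990 to 2.39 and 0.975 to 2.06 FPKM (0.11, adjusted p = 0.853). *Plxna4*, a receptor of *Sema3a* and *Sema6a*, spread widely, at 0.916 to 6.78 FPKM in HSD17B1TG and 0.273 to 5.49 in WT. Its highest values were in TG1 and WT4, and its log2 fold change of 0.91 had an SE of 0.81 (adjusted p = 0.511). Without WT4 alone it was called (adjusted p = 0.0266, log2 fold change 2.35), with an adjusted p of up to 0.825 when another mouse was left out. *Plxna4* has 3 antisense genes on its other strand, and since the strand setting of the counting is not given in the sources used here, their reads cannot be told apart. Of the 31 members 18 overlap some other annotated gene and none overlaps a protein-coding one. *Sema3b*, *Sema3c*, *Sema3f* and *Sema7a* overlap none, whereas *Sema6d* overlaps 2 long noncoding genes on the other strand.

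Neither neuropilin was called by edgeR or DESeq2, and *Nrp1* had an unadjusted p of 0.0327 and was called by voom. *Nrp1*, the receptor of *Sema3a* and VEGF, was at 6.98, 3.04, 3.16, 2.45 and 1.70 FPKM in TG1 to TG5. The level in WT was 6.06, 5.33, 6.25, 6.63 and 5.21 FPKM in WT1 to WT5. TG1 was the highest of all 10 mice and the other HSD17B1TG mice were below every WT mouse. The log2 fold change was -0.77 (SE 0.32, adjusted p = 0.152), and of the 10 edgeR fits without 1 mouse only that without TG1 called it (-1.19, adjusted p = 0.0123), the others giving up to 0.269. Voom gave an adjusted p of 0.0144, and edgeR without both TG1 and WT4 gave 0.00672. *Nrp2*, the receptor of *Sema3f* and VEGF-C, was at 9.84, 3.87, 2.06, 8.05 and 2.41 FPKM in TG1 to TG5. WT levels were 3.20, 3.25, 3.50, 5.18 and 4.02 FPKM in WT1 to WT5. TG1 and TG4 lay above and TG3 and TG5 below all WT mice (0.45, SE 0.41, adjusted p = 0.524). The ratio of *Nrp2* to *Nrp1* was 0.654 to 3.29 in HSD17B1TG and 0.528 to 0.782 in WT, with TG3 alone inside the WT range.

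**Figure D5:**
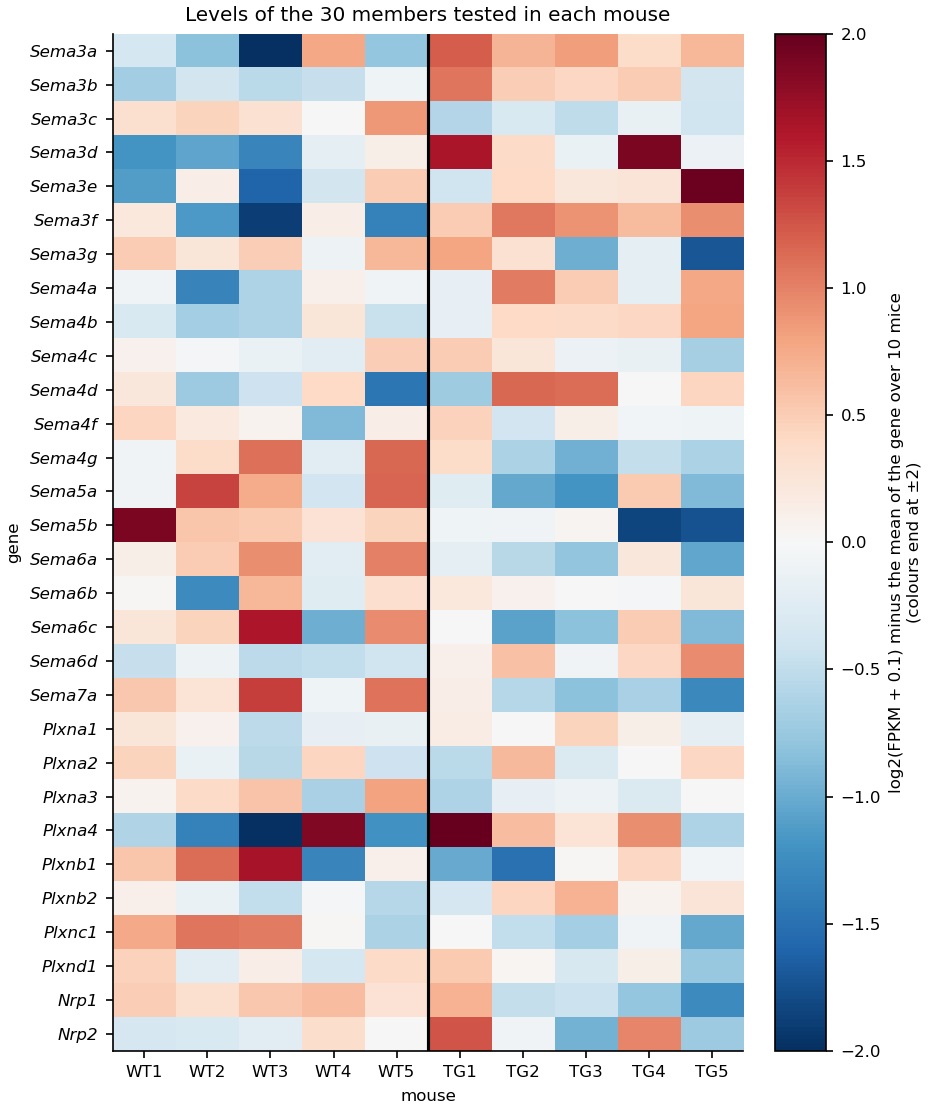
Level of the 30 members tested in each mouse, as log2(FPKM + 0.1) minus the mean of the gene over the 10 mice, with red above and blue below it and colours ending at ±2. WT4 was the lowest WT mouse for 13 of the members and TG1 the highest HSD17B1TG mouse for 12.

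The members did not vary evenly over the mice. TG1 was the highest HSD17B1TG mouse for 12 of the 30 members and the lowest for 8, and TG5 was the lowest for 10. WT4 was the lowest WT mouse for 13 and the highest for 7. TG1 and WT4 were each the highest of their group for *Sema3a*, *Plxna4*, *Nrp1* and *Nrp2*, and each the lowest for *Sema3c* and *Plxna3*. The summed FPKM of 8 smooth muscle markers was 3893 in TG1 and 3236 in WT4, against 446 to 1693 in the other HSD17B1TG and 252 to 1238 in the other WT mice. None of these 8 markers had even an unadjusted p under 0.05 in edgeR, and none was called by DESeq2 or voom. With both mice left out, an alternative chosen after seeing these values, edgeR called 5 members higher (*Sema3a*, *Sema3f*, *Sema4b*, *Sema6d* and *Plxna4*) and 6 lower (*Sema3c*, *Sema4g*, *Sema6a*, *Sema7a*, *Plxna3* and *Nrp1*). *Sema3b* was then at an adjusted p of 0.0563. Of all genes, 3246 were called in that fit.

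Markers of epithelium moved with some of the members as well. The 11 epithelial markers all had positive values (median log2 fold change 1.20), and edgeR called none of them, with 8 at an unadjusted p under 0.05, DESeq2 3 and voom 8, their summed FPKM being 913 to 3881 in HSD17B1TG and 518 to 1892 in WT. Within WT that sum was highest in WT4 (1892) and WT1 (1174), the mice with the highest *Sema3f*, *Sema4b*, *Sema4d* and *Plxnb2*. Within HSD17B1TG it was lowest in TG1, the mouse with the lowest level of the same genes among the 5. These 4 genes were chosen after their values were seen, and the members called higher did not share this order, *Sema3b* being highest in TG1 and lowest in WT1 of all mice, and *Sema6d* being highest in WT2 within WT and lowest in TG3 within HSD17B1TG. Of 9 markers of endometrial stroma 6 had negative and 3 positive values, and edgeR, DESeq2 and voom each called 4 lower (in edgeR *Pdgfra*, *Hoxa11*, *Mfap5* and *Smoc2*) and none higher. The sum was 324 to 1233 in HSD17B1TG and 558 to 912 in WT. Of 9 markers of blood endothelium 7 had negative values, with no call by edgeR, 5 at an unadjusted p under 0.05, 2 calls by DESeq2 and 3 by voom, and the sum was 40.1 to 145 and 73.8 to 175. It was highest in TG1 and lowest in TG5 among HSD17B1TG, as were *Sema3g*, *Plxnd1* and *Nrp1*, 3 genes chosen after their values were seen. Within WT the order differed, the sum being highest in WT3 and lowest in WT2, *Nrp1* highest in WT4 and lowest in WT5, *Plxnd1* highest in WT1 and lowest in WT4, and *Sema3g* highest in WT5 and lowest in WT4. The 5 markers of lymphatic endothelium tested had positive values with no call by edgeR, 4 by DESeq2 and 4 by voom and as many at an unadjusted p under 0.05. Their sum was highest in TG1 (47.3) and TG4 (44.9), the mice with the highest *Nrp2*, a match noted after the values were seen. Among HSD17B1TG, TG1 and TG4 also had the highest sums for smooth muscle, stroma, blood endothelium, macrophages, lymphocytes and neutrophils, so the match is not particular to lymphatic markers. Of 5 markers tested for Schwann cells and neurons edgeR called 1 higher, with 3 at an unadjusted p under 0.05. DESeq2, which also tested markers under the filter, called 4 higher and 1 lower in that list, and voom called 2 higher. Of 8 for macrophages edgeR called 1 higher, *Cd68* (adjusted p = 0.0269), with 2 at an unadjusted p under 0.05 and 1 call each by DESeq2 and voom. It called none of 4 for T and B lymphocytes and none of 3 for neutrophils, with 2 of each at an unadjusted p under 0.05, and DESeq2 called 1 and 2 of them, voom 1 and 0. Sums of the smaller lists in HSD17B1TG and WT were 12.3 to 23.9 and 4.86 to 7.96 for Schwann cells and neurons, which did not overlap, 157 to 255 and 121 to 188 for macrophages, 2.41 to 8.44 and 2.53 to 5.23 for lymphocytes, and 3.40 to 15.4 and 0.864 to 3.95 for neutrophils. Over all genes, for comparison with these lists, 26.1% had an unadjusted p under 0.05 in edgeR. DESeq2 called 7.31% of all genes higher and 5.64% lower, and voom 3283 of 16993. The part of cell composition in the differences between the members was not tested.

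The proteins that plexins act through were taken from a list of 29 genes. Of these 2 were called higher and 1 lower by edgeR, with 7 at an unadjusted p under 0.05. DESeq2 called 2 in each direction, and voom 4 higher and 2 lower. Over all genes 26.1% had an unadjusted p under 0.05, and DESeq2 called 7.31% higher and 5.64% lower. Voom called 3283 of the 16993 genes tested. The list had a median log2 fold change of 0.08. *Fes*, a tyrosine kinase that binds plexin A, was at 15.1 ± 3.57 FPKM in HSD17B1TG and 6.25 ± 1.32 in WT and rose by 1.27 (SE 0.20, edgeR adjusted p = 0.0177). *Farp1*, an exchange factor linked to plexin A signalling, rose by 0.78 (SE 0.20, adjusted p = 0.0454), from 15.5 ± 3.95 to 26.7 ± 4.89 FPKM. *Limk1*, the kinase that inactivates cofilin, fell by 1.16 (SE 0.26, adjusted p = 0.0338), from 5.08 ± 1.29 to 2.28 ± 0.632 FPKM. All 3 were free of overlap between the groups, as were 4.04% of all genes tested in the higher and 2.65% in the lower direction. Since the 3 were named for their p in the same mice, this is no separate evidence. *Cfl1*, the cofilin that LIM kinase acts on, was at 278 and 277 FPKM.

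Of 15 co-receptors and alternative receptors 1 was called by edgeR, with 6 at an unadjusted p under 0.05, while DESeq2 called 4 higher and voom 5 higher and 2 lower. *Erbb2*, the partner of plexin B in semaphorin signalling, rose by 1.09 (SE 0.26, adjusted p = 0.0388), from 12.5 ± 2.91 to 26.7 ± 9.21 FPKM. The next by p were *Flt4*, the VEGF-C receptor that pairs with *Nrp2* (1.64, adjusted p = 0.0529), and *Mst1r*, a relative of *Met* (1.16, adjusted p = 0.0669). *Kdr*, the VEGF receptor that pairs with *Nrp1*, was at 5.04 ± 2.46 and 7.69 ± 0.999 FPKM (-0.61, adjusted p = 0.205). None of the 5 VEGF-type ligands was called by edgeR, DESeq2 or voom, with 1 at an unadjusted p under 0.05. The smallest p were those of *Vegfa* (-1.01, adjusted p = 0.108), *Vegfc* (1.16, adjusted p = 0.215) and *Pgf* (-0.44, adjusted p = 0.758). None of the 4 convertases, a type of protease that cuts secreted semaphorins, was called by edgeR, with 2 at an unadjusted p under 0.05. DESeq2 called 1 and voom 2. *Pcsk5* (-1.92, adjusted p = 0.0699), *Pcsk7* (0.52, adjusted p = 0.134) and *Pcsk6* (0.57, adjusted p = 0.590) came first by p. Together the 53 genes of these lists had 3 calls higher and 1 lower by edgeR, beside the 3.34% and 2.81% of all genes. An unadjusted p under 0.05 was found in 16 of the 53, beside 26.1% of all genes.

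Other guidance families were tested by edgeR beside the same 3.34% and 2.81% of all genes. Of 5 Slit and Robo genes tested, the ligand *Slit2*, at only 0.0195 to 0.474 FPKM in WT, rose by 2.55 (SE 0.62, adjusted p = 0.0412). The receptor *Robo2* fell by 1.46 (SE 0.37, adjusted p = 0.0456), while the endothelial *Robo4* was next (-0.88, adjusted p = 0.0750). Of 7 netrin genes and receptors tested, *Ntn5* rose by 5.20 (SE 0.95, adjusted p = 0.0224), from a WT level near the floor, at 0 to 0.524 FPKM. *Unc5b* rose by 1.39 (SE 0.27, adjusted p = 0.0246) and *Unc5c*, under 1 FPKM, fell by 2.20 (SE 0.45, adjusted p = 0.0268). Of 18 ephrins and Eph receptors tested, *Efna4* rose by 1.08 (SE 0.26, adjusted p = 0.0396), *Efna2* fell by 1.26 (SE 0.30, adjusted p = 0.0394) and *Efnb3* fell by 2.37 (SE 0.53, adjusted p = 0.0344). DESeq2 called 3 of the Slit and Robo genes, 4 of the netrin genes and 7 of the ephrin genes, and voom 3, 4 and 6. Over all genes DESeq2 called 7.31% higher and 5.64% lower, and voom called 3283 of 16993. The dependence of the calls in these families on single mice was not tested. Whether the semaphorin family differs from these families in its number of calls was not tested.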

How the data were processed

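The authors sequenced RNA of whole uterus from both ends (150 bp) and aligned the reads by HISAT2 2.0.5 (version from the submitters' processing notes) to the mouse genome with Ensembl 94 and deposited 1 table of 29268 genes. Per mouse it holds the raw count, the deposited signal, which is the count divided by a size factor, and the deposited FPKM, scaled by the same factor. How reads were counted, and with which strand option, is not given in the sources used here. The deposited log2 fold changes and p-values of the authors' DESeq2 comparison, their shorter table and their enrichment tables were not used.

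The genotype label of each sample gave its group. The counts were filtered with filterByExpr, scaled by TMM and tested by quasi-likelihood in edgeR 4.0.16 (R 4.3.3), and p was adjusted by Benjamini-Hochberg over 16993 genes. SE is the log2 fold change over the root of the F statistic. The alternatives were DESeq2 1.42.0, other scalings, no filter, voom with quality weights and limma 3.58.1 on log2 FPKM with pseudocounts of 1 and 0.1, each mouse left out, and the study's thresholds on the edgeR p. These thresholds on the DESeq2 p, and fits without TG1 and WT4, and without TG1, TG4 and TG5, were added after the data were seen. The members, lists and tests were chosen with earlier results of these data known. Values in each mouse are given for called members, members whose groups do not overlap, the 3 most abundant ligands and receptors and the neuropilins, and in each pathway list the called genes and those with the smallest p are named. Marker lists are given as counts and ranges. *Kdr*, *Cfl1*, the named stroma and macrophage markers and the genes between *Sema3b* and *Sema3f* were named after their values were seen. *Ccl21a* has 2 rows and was not used, and *Ntn3* and *Epha10* were not analysed here. All 31 members have the same coordinates in GENCODE M21, which gave the overlaps.

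A count of 3 corresponds to 0.129 to 0.202 CPM in these libraries, and this limit covers counting error only. No 2 libraries of the same group agreed within sampling noise. The methods were also run on simulated counts with the same spread set for every gene. The outcome of that run is not given here and backs none of the calls. The labels do not say whether mice shared a litter or a day, so no batch was modelled.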

Additional observations from a re-analysis of the deposited data

Results flagged for a closer look

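In 6 of the 60 groups of 5 mice, 1 mouse lay farther from the rest than Dixon's test at 95% allows, and chance alone flags about 1 group in 20. Among HSD17B1TG, TG5 was far above the others for *Sema3e*, at 4.159 FPKM against 0.728 to 1.35. TG1 was far above for *Sema4g*, at 2.874 FPKM against 1.09 to 1.57, and for *Nrp1*, at 6.979 FPKM against 1.70 to 3.16. Among WT, WT1 was far above for *Sema5b*, at 2.137 FPKM against 0.643 to 0.788, and WT2 for *Sema6d*, at 2.747 FPKM against 2.02 to 2.21. WT4 was far above for *Plxna4*, at 5.49 FPKM against 0.273 to 0.926. TG1 and WT4 are also the mice with the highest summed smooth muscle markers of their groups, and the part of tissue composition in these values was not tested.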

How the results depend on the processing

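The calls lie near the threshold and depend on the method and on single mice, while no log2 fold change of a member called in the report changed its sign. The 2 members called higher became 5 with DESeq2, 1 with upper quartile scaling, 0 without the filter, 8 with voom weights, 1 with limma on log2(FPKM + 1), 0 with the study's fold and FPKM thresholds on the edgeR p and 1 with them on the DESeq2 p, 5 without TG1 and WT4, 0 without TG1, TG4 and TG5, and 0 to 6 with 1 mouse left out. The 2 called lower became 5 with DESeq2, 6 with voom weights, 1 and 3 with those thresholds on the edgeR and DESeq2 p, 6 without TG1 and WT4, 0 without TG1, TG4 and TG5, and 0 to 4 with 1 mouse left out. The 3 genes of the pathway lists called higher became 6 with DESeq2, 10 with voom weights, 10 without TG1 and WT4, 0 without TG1, TG4 and TG5, and 0 to 6 with 1 mouse left out. The 1 called lower became 3, 5, 6, 0 and 0 to 4 in the same fits. Without TG2, TG4, WT1, WT2, WT3 or WT5 edgeR called no member, with 12 to 17 at an unadjusted p under 0.05, and all genes called numbered 76 to 2387 over the 10 fits with 1 mouse left out, beside 1046 with all mice, 2811 with DESeq2 and 3283 with voom weights. Without the filter 382 of 843 calls were higher, and with upper quartile scaling 474 of 1089, beside 568 of 1046. Upper quartile scaling moved the median of all genes to -0.08. Over the single members 570 values were compared with the main fit, and 40 lost their call. All 40 fell on the 4 called members, since the other members had no call to lose. Of the values of the other members 36 gained a call, and 0 turned direction among called values. The cause of these shifts was not tested. No paired analysis was possible because the labels give no replicate numbers shared by the groups. With 5 mice a group, differences under the printed intervals cannot be decided. *Plxnb3* was too low to pass the edgeR filter, and DESeq2, which tested it, did not call it (adjusted p = 0.266).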
